A study of Mus musculus with 6 samples.

Results

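Perivascular resident macrophages are long-lived macrophages that sit along blood vessels in the connective tissue of most organs, the kidney included. They take up material from blood and tissue fluid with lectins and scavenger receptors, and they are usually recognized by a set of genes that other macrophages express less. The 10 genes described here are of this set, Cd209f, Clec10a, Mrc1, Cd163, Folr2, Lyve1, Timd4, Ccl8, Retnla, and F13a1. They were chosen by name and with their measured difference between the genotypes on these same arrays in view, so that difference is given as a description without a test. The arrays read 37325 genes with 56605 probes, and the 10 genes have 14 of these probes. Of the 10 genes, 7 have 1 probe, and Cd163, Clec10a, and F13a1 have more.

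RNA came from whole left kidneys of male mice that were 8 weeks old and had fasted for 20 h. The 3 WT mice (replicates 2, 3, and 4) were C57BL/6J mice from a supplier, and the 3 Selenbp1-KO mice (replicates 1, 2, and 3) lacked selenium-binding protein 1, Selenbp1, in a line described earlier, with the strain also labelled C57BL/6J. The sources do not call them littermates. Fasting was shared by both genotypes. Each mouse had 1 single-dye Agilent array, all on 1 slide. WT replicates 2 and 3 lay in slide row 1, and WT replicate 4 and the 3 Selenbp1-KO replicates lay in slide row 2. Slide row 1 held no Selenbp1-KO array, so a difference with the slide row as a block compares Selenbp1-KO with WT replicate 4 alone. A difference with a replicate block rests on the arrays numbered 2 and 3 of each genotype. Signals below are log2 values relative to the 75th percentile of the same array, where 0 is the signal at that percentile, and they can be compared between arrays for 1 probe but not between probes. A probe is called well above background where the scanner software marked it so.

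The probe of Selenbp1 read 7.07, 7.02, and 7.02 in WT and 4.13, 3.98, and 4.10 in Selenbp1-KO, a difference of −2.96 (standard error 0.098, limma adjusted p = 0.00138), so the signal and the genotype label went together on every array. Whether the probe lies in the deleted part is not given in the sources used here. Of 37028 genes tested, 2544 were higher in Selenbp1-KO at an unadjusted p under 0.05 in limma (6.87%) and 420 were lower (1.13%), and 2 passed after adjustment for all genes, Selenbp1 and its paralog Selenbp2. In 10.2% of genes the lowest Selenbp1-KO value exceeded the highest WT value, and in 3.87% the highest Selenbp1-KO value lay under the lowest WT value. Among the 19263 genes that were well above background throughout at least 1 genotype these shares were 12.5% and 6.52%. The median difference was 0.02 over these genes but 0.38 over the 15879 genes that were not well above background on any array, and the latter fell to 0.01 after quantile normalization, so differences of dim probes are read beside that shift. The 75th percentile was 711 and 751 on the arrays of slide row 1 and 477 to 584 on those of slide row 2. The part of the slide row in that shift was not tested. All 9 marker genes of kidney tubule and glomerulus were well above background, and their summed signal was 504 to 532 times the 75th percentile in WT and 513 to 544 times in Selenbp1-KO.

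All 10 genes had a higher mean in Selenbp1-KO than in WT. Among the 5 genes well above background on all arrays, the mean was higher by 5.30-fold for Retnla, the largest, and by 1.05-fold for Folr2, the smallest. The log2 differences of Cd209f and F13a1 were 2.92 and 1.77, but Cd209f was well above background on 1 WT array and F13a1 on 2, so their sizes are uncertain. After normexp correction they were 1.07 and 0.99, below Retnla at 1.74. The median of the 10 log2 differences was 0.95, beside 0.13 over all genes tested. In 7 of the 10 genes the genotypes did not overlap, beside the 10.2% over all genes given above. Of the 10, 8 were well above background throughout at least 1 genotype, and 6 of these 8 did not overlap, beside 12.5%. Nothing is read from these counts, because this same difference was in view when the genes were chosen. In whole-kidney RNA, more cells of a type and more RNA per cell cannot be told apart.

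**Figure D1:**
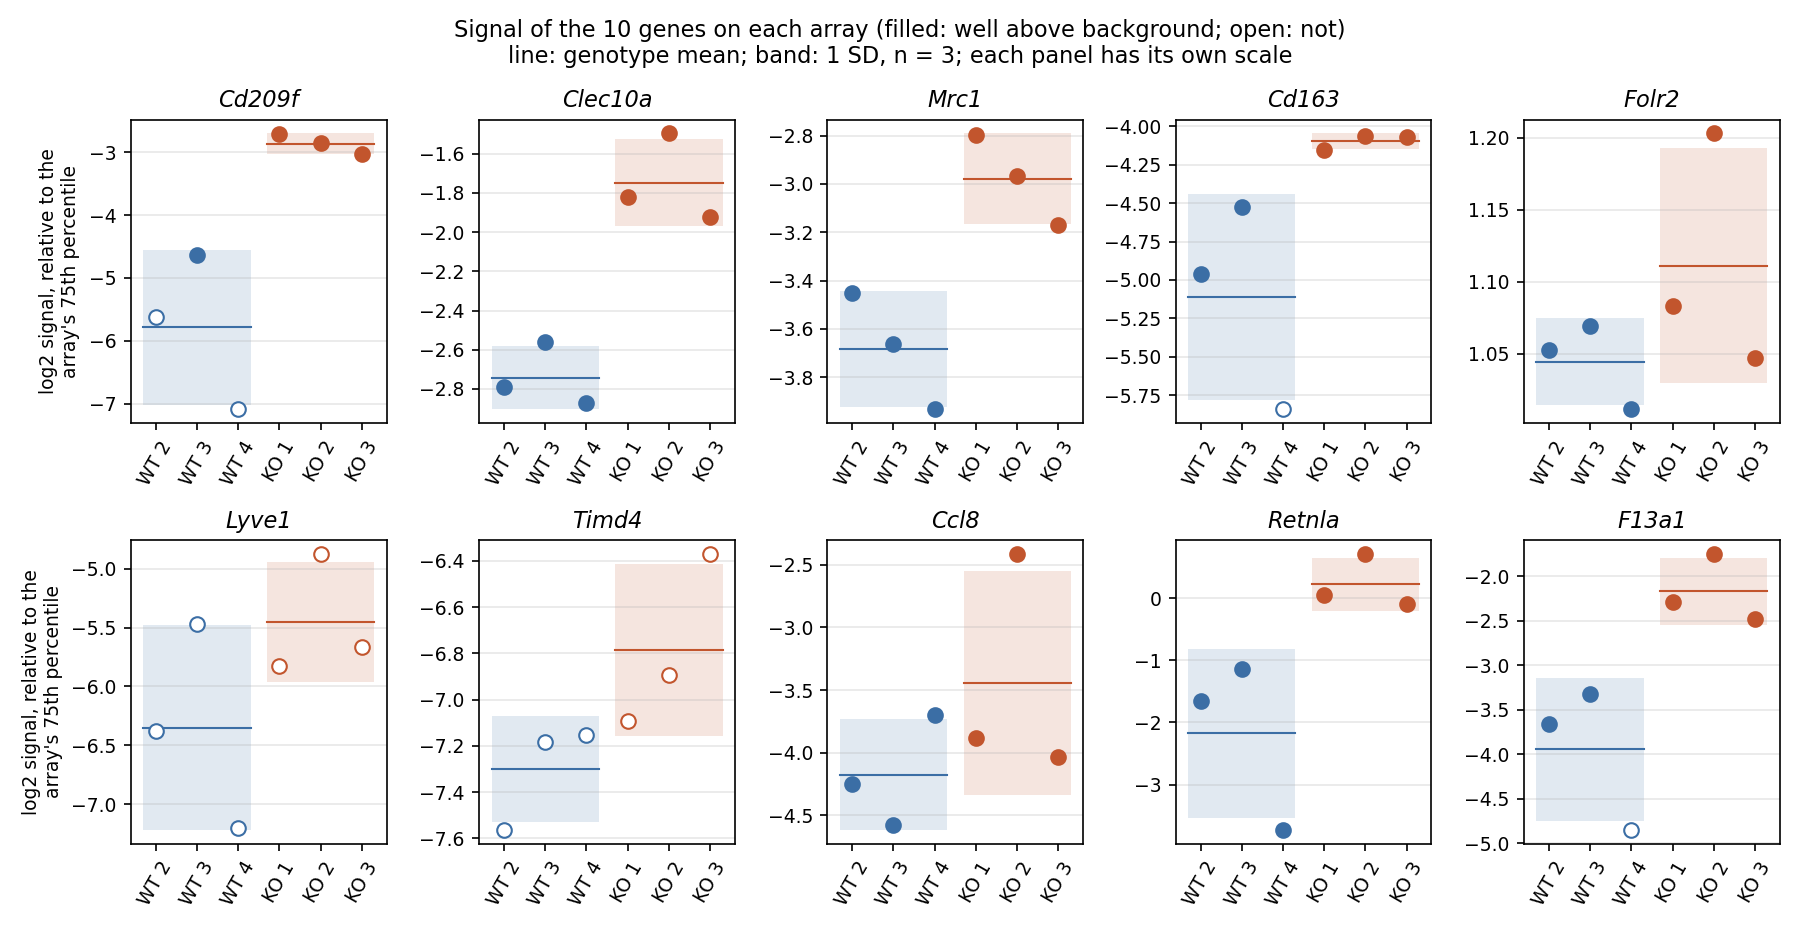
Log2 signal of the 10 genes (vertical axis, relative to the 75th percentile of each array, with a scale for each panel) on the 3 WT arrays (blue) and the 3 Selenbp1-KO arrays (orange), with filled points where the probe was well above background, a line at the mean of each genotype, and a band of 1 SD (n = 3). Cd209f, Clec10a, Mrc1, Cd163, Retnla, and F13a1 separated the genotypes, Folr2 and Ccl8 overlapped, and Lyve1 and Timd4 had open points only.

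The first class consisted of the C-type lectins, receptors that bind sugars on proteins, cells, and microbes. Cd209f belongs to the mouse CD209 (DC-SIGN) family, whose genes lie together on chromosome 8. Its probe (NM_026956, chromosome 8 of mm9, 4102798 to 4102857) read −5.63, −4.64, and −7.09 in WT and −2.71, −2.85, and −3.03 in Selenbp1-KO, here and below in the order of the replicate numbers. The Selenbp1-KO arrays lay close together and all 3 were well above background, whereas the WT arrays were spread widely and only WT replicate 3 was. The means were −5.79 ± 1.23 in WT and −2.86 ± 0.163 in Selenbp1-KO (SD, n = 3 each), a log2 difference of 2.92 (standard error 0.59). Because the WT level lay near background, the size depended on how background was removed, and it was 1.07 after normexp correction of the raw signals.

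Clec10a encodes a lectin for galactose-type sugars, also called macrophage galactose lectin. Its brighter probe (NM_010796, chromosome 11, 69984232 to 69984291) read −2.79, −2.56, and −2.87 in WT and −1.82, −1.50, and −1.92 in Selenbp1-KO. It had the lowest standard error among the 6 genes above background that separated the genotypes, with means of −2.74 ± 0.162 and −1.75 ± 0.223 (SD, n = 3 each) and a difference of 0.995 (standard error 0.158). It was well above background on all 6 arrays. The other Clec10a probe (chromosome 11, 69981437 to 69981496), which lies near the start of the same transcript, was not well above background on any array. Its difference was 0.38, beside the median of 0.38 over genes at background.

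Mrc1 encodes the mannose receptor CD206, which takes up glycoproteins and is a common marker of resident and alternatively activated macrophages. Its probe (NM_008625, chromosome 2, 14253273 to 14253332) read −3.45, −3.66, and −3.93 in WT and −2.80, −2.97, and −3.17 in Selenbp1-KO. The genotypes did not overlap, and all 6 arrays were well above background. The difference was 0.70 (standard error 0.169), a 1.63-fold higher mean. It was 0.47 after normexp correction and 0.49 with a replicate block.

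The second class consisted of receptors for scavenging and uptake. Cd163 encodes the receptor that removes haptoglobin–hemoglobin complexes. Its brighter probe (NM_053094, chromosome 6, 124280484 to 124280543) read −4.96, −4.52, and −5.84 in WT and −4.15, −4.06, and −4.07 in Selenbp1-KO. The Selenbp1-KO arrays were nearly equal and all above background, and of the WT arrays replicates 2 and 3 were. The difference was 1.01 (standard error 0.33), and it fell to 0.65 without WT replicate 4 and to 0.47 after normexp correction. The second Cd163 probe (chromosome 6, 124270436 to 124270495) was at background on all arrays, with a difference of 0.38.

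Folr2 encodes folate receptor beta, the folate receptor of macrophages, and it was the one gene of the set whose difference was smaller than its standard error. Its probe (NM_008035, chromosome 7, 108988771 to 108988830) read 1.05, 1.07, and 1.01 in WT and 1.08, 1.20, and 1.05 in Selenbp1-KO. All 6 arrays were well above background, the 2 ranges overlapped, and the difference was 0.07 (standard error 0.098). Folr1, the paralog expressed in kidney tubules, differed by 0.04 (standard error 0.103, limma adjusted p = 0.86). Whether the Folr2 probe also reads Folr1 transcripts was not tested.

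Lyve1 encodes a hyaluronan receptor that marks the perivascular subset as well as lymphatic vessels, and Timd4 encodes a receptor for phosphatidylserine on dying cells. Neither was well above background on any array, so no fold is given. The Lyve1 probe (NM_053247, chromosome 7, 117994171 to 117994230) read −6.38, −5.47, and −7.20 in WT and −5.83, −4.87, and −5.67 in Selenbp1-KO, with overlap. The Timd4 probe (NM_178759, chromosome 11, 46657173 to 46657232) read −7.56, −7.18, and −7.15 in WT and −7.09, −6.89, and −6.37 in Selenbp1-KO. Its groups did not overlap, but its difference of 0.52 fell to 0.20 after quantile normalization. The name perivascular therefore rests on the known use of the genes and not on a Lyve1 signal in these kidneys.

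The third class consisted of proteins that the cells secrete or release. Retnla encodes a resistin-like protein, also known as Fizz1, that macrophages make in response to IL-4 and IL-13. Its probe (NM_020509, chromosome 16, 48844447 to 48844506) read −1.66, −1.15, and −3.73 in WT and 0.05, 0.72, and −0.09 in Selenbp1-KO. It was well above background on all 6 arrays, the genotypes did not overlap, and WT replicate 4 stood far below the other WT arrays. The means were −2.18 ± 1.37 in WT and 0.23 ± 0.431 in Selenbp1-KO (SD, n = 3 each), a difference of 2.40 (standard error 0.68). Without WT replicate 4 the difference was 1.63, and against WT replicate 4 alone it was 3.96.

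F13a1 encodes the A subunit of coagulation factor XIII, the transglutaminase that crosslinks fibrin, and resident macrophages express it outside the blood. Its brightest probe (NM_028784, chromosome 13, 36959214 to 36959273) read −3.66, −3.32, and −4.85 in WT and −2.29, −1.75, and −2.48 in Selenbp1-KO. The genotypes did not overlap, and WT replicate 4 was again the lowest and the only array not well above background. The difference was 1.77 (standard error 0.43). The other 2 probes of F13a1 (chromosome 13, 37063829 to 37063888 and 37061516 to 37061575) were at background on all arrays, with differences of 0.40 and 0.22, and the mean over the 3 probes was 0.80.

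Ccl8 encodes a chemokine that attracts monocytes and T cells. Its probe (NM_021443, chromosome 11, 81930108 to 81930167) read −4.25, −4.58, and −3.70 in WT and −3.89, −2.41, and −4.03 in Selenbp1-KO. Only Selenbp1-KO replicate 2 was above the WT range, the groups overlapped, and the difference was 0.73 (standard error 0.48). It was 0.22 without Selenbp1-KO replicate 2. Among 9 genes of related chemokines and receptors, of which Ccl2 and Ccl7 also belong to the list of other resident macrophage genes, 3 were called higher at an unadjusted p under 0.05 (33.3%, beside 6.87% of all genes) and 0 lower (beside 1.13%). Of these, Ccl12 and Ccr8 were not well above background on any array, and Ccl11, the eosinophil chemokine eotaxin, differed by 1.12 (standard error 0.42, limma adjusted p = 0.275). Ccl11 was well above background on 2 WT arrays, so its size is uncertain. The count of 3 was 1 after quantile normalization, 0 without Selenbp1-KO replicate 2, 1 when Selenbp1-KO replicate 3, WT replicate 2, or WT replicate 3 was left out, 5 when WT replicate 4 was, and 6 with a replicate block. With the slide row as a block 1 was called higher and 2 lower. Ccl2, another monocyte chemokine, differed by 0.14 (standard error 0.30, limma adjusted p = 0.846).

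To show the regulatory sequence beside 2 of the genes that separated the genotypes, the 250 bases before the start of Retnla and of Cd209f are given from RefSeq (GRCm38.p6), 5′ to 3′ on the strand of the gene. Of the 10 genes, 8 had entries, with 2 entries each for Folr2 and F13a1, and Lyve1 and Clec10a had none. Capitals mark matches on either strand to 4 motifs. GAGGAA is the core of sites for PU.1, the lineage factor of macrophages. A half-site for the MAF factors was searched as TGCTGA. The spacing that STAT6 prefers was searched as TTCNNNNGAA, and the last motif was the TATA box as TATAAA, which was added after the sequences had been read. No 2 matches overlap in the sequences shown.
Retnla, chr16:48842359-48842608, + strand: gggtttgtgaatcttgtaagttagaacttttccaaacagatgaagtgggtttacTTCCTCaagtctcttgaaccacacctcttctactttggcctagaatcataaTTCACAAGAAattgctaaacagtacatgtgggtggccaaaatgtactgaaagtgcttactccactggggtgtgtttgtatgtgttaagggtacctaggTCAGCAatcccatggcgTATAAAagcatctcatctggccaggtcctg
Cd209f, chr8:4105765-4106014, − strand: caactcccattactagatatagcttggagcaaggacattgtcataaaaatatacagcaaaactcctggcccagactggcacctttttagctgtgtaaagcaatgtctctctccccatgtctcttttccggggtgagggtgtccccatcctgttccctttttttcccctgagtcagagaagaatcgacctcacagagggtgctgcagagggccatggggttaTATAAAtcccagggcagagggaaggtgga

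Retnla was the only one of the 8 genes with all 4 motifs. The motifs were counted in windows of 300 bases, 250 before and 50 after the start, and 32851 windows of all genes served for the background. The STAT6 spacing lay in the Retnla window alone of the 10 windows of the 8 genes, and in 6.95% of all windows. The PU.1 core lay in 5 of the 10 windows (of Mrc1, Ccl8, F13a1, and Retnla) beside 28.3% of all, and the MAF half-site in 5 (of Folr2, Timd4, Ccl8, and Retnla) beside 19.5%. TATAAA lay in 3 of the 10 windows (of Cd209f, Ccl8, and Retnla) beside 13.6%. In Cd209f it was the only match. A match says that these letters are present and not that a factor binds there.

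The 10 genes varied together over the arrays in part. WT replicate 4 had the lowest of the 3 WT values in 8 of the 10 genes, and Selenbp1-KO replicate 2 had the highest Selenbp1-KO value in 7. Every Selenbp1-KO array was above WT replicate 4, the one WT array in the same slide row, in 9 of the 10 genes, with Ccl8 as the exception. Within slide row 2 the median of the 10 differences was 1.44, with 4.23 for Cd209f, 3.96 for Retnla, 2.68 for F13a1, 1.75 for Cd163, and 0.96 for Mrc1. Against WT replicates 2 and 3 of slide row 1, every Selenbp1-KO array was higher in 8 of the 10 genes, and the differences were 2.27 for Cd209f, 1.63 for Retnla, 1.32 for F13a1, 0.65 for Cd163, and 0.58 for Mrc1. Clec10a differed by 1.13 within slide row 2 and by 0.93 against slide row 1. The other 4 probes of Cd163, Clec10a, and F13a1, all at background, differed by 0.06, 0.05, 0.09, and −0.22 within slide row 2. Against slide row 1 these probes differed by 0.53, 0.54, 0.55, and 0.44. Each of these comparisons uses 1 or 2 WT arrays and has no test. The 9 genes include Lyve1 and Timd4 and the 8 genes include Timd4, both at background. The shares of all genes that did the same were not counted, so nothing is read from the 9 and the 8.

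The 5 genes of the set that were well above background on all arrays, Retnla, Mrc1, Folr2, Ccl8, and Clec10a, gave a mean profile over the 6 arrays after each gene was centered on its own mean. The mean profile held −0.36, −0.32, and −0.79 for the WT arrays and 0.38, 0.87, and 0.22 for the Selenbp1-KO arrays. Clec10a lay nearest to it, at a root mean square distance of 0.119, and Retnla farthest, at 0.96. Among 18356 other genes, the 5 with the smallest distance were Lum (0.138), Dcn (0.151), Ntng1 (0.158), Dpt (0.16), and the transcript ENSMUST00000118843 on chromosome X (0.164). Lum, Dcn, and Dpt encode lumican, decorin, and dermatopontin, matrix proteins made by fibroblasts, and Ntng1 encodes netrin G1. These likenesses rest on 6 arrays, and the profile itself differs between the genotypes, so genes that differ likewise lie near it.

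**Figure D2:**
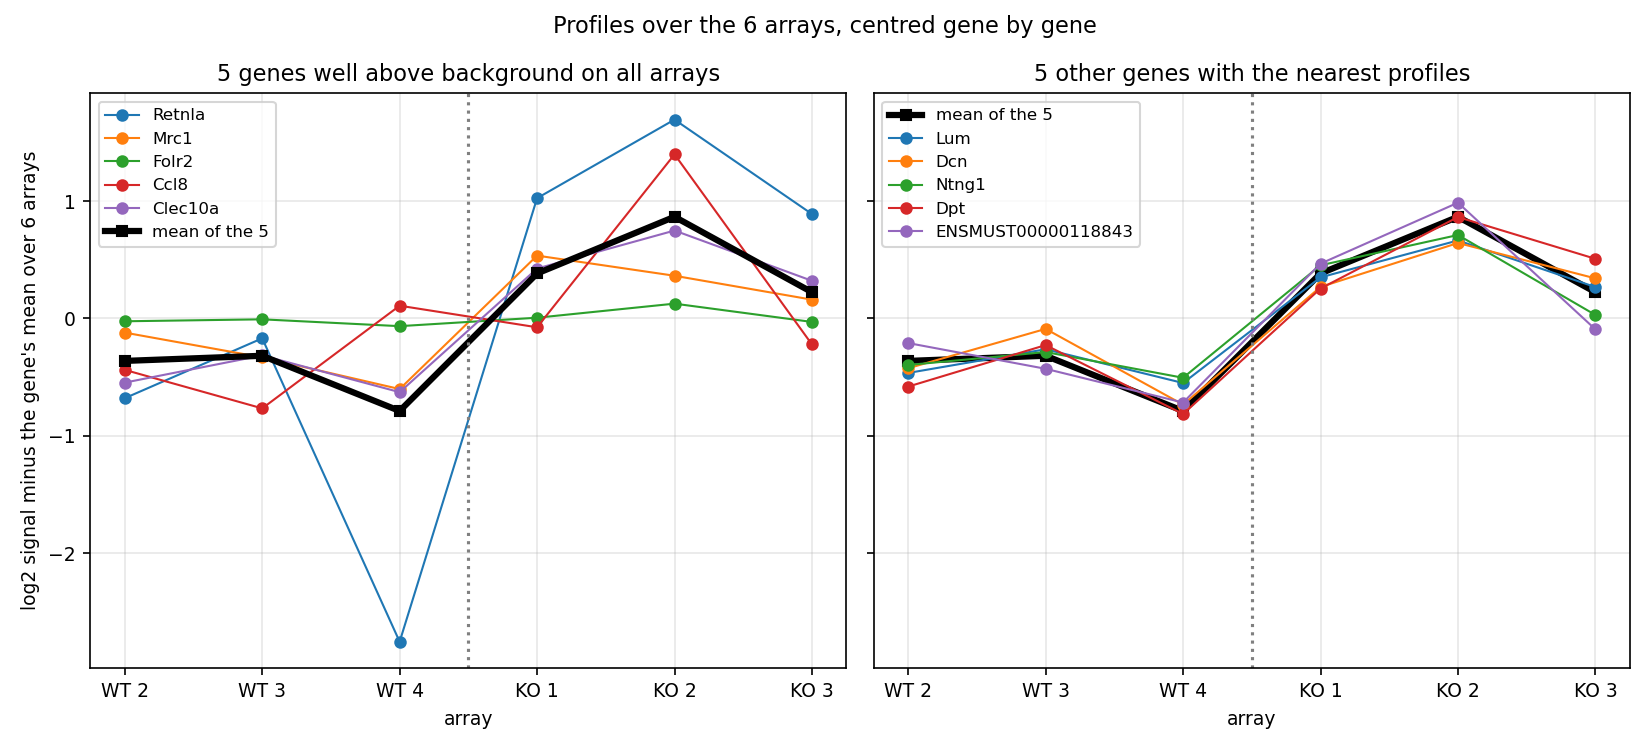
Log2 signal minus the mean of the gene over the 6 arrays (vertical axis) for each array (horizontal axis), for the 5 genes of the set that were well above background on all arrays (left) and the 5 other genes with the nearest profiles (right), with lines joining the points of 1 gene and a thick line for the mean of the 5. Retnla had the widest range, from −2.76 in WT replicate 4 to 1.69 in Selenbp1-KO replicate 2, and Folr2 was flat.

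A list of 30 other genes of resident macrophages, which does not hold the 10, was read in the same fit. Of these, 10 were called higher in Selenbp1-KO at an unadjusted p under 0.05 (33.3%, beside 6.87% of all genes) and 0 were called lower (beside 1.13%). The median difference was 0.26, beside 0.13 over all genes tested, and 24 of the 30 were higher. The share of all genes with a higher mean was not counted, so nothing is read from the 24. None passed after adjustment for all genes. Cd209b, a CD209 lectin known from marginal zone macrophages of the spleen, read −7.27, −7.33, and −6.83 in WT and −4.70, −4.36, and −4.86 in Selenbp1-KO. It had the lowest adjusted p of the list, 0.101 in limma, but no array was well above background, so it is neither sized nor ranked. Among the genes of the list that were well above background throughout at least 1 genotype, Ccl24 had the largest difference. It was well above background on 1 WT array, so its size is uncertain.

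Lectins and chemokines made up 6 of the 10. Cd209d, also of the CD209 family, differed by 0.84 (standard error 0.166), and all 6 arrays were well above background. The chemokines Ccl24, Pf4, Ccl9, and Ccl6 differed by 1.59 (0.34), 1.06 (0.28), 0.88 (0.21), and 0.67 (0.143), with standard errors in parentheses. Ms4a7, a membrane protein of resident macrophages, differed by 0.81 (0.27), Cfp, the complement regulator properdin, by 0.45 (0.142), and Ltc4s, leukotriene C4 synthase, by 0.37 (0.107). Fcrls, an Fc receptor-like gene, differed by 1.30 (0.179) but was not well above background on any array. The limma adjusted p was 0.275 for each of these except Cd209b.

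Other genes of the list did not pass the threshold. Fcna, ficolin A, differed by 1.39 (standard error 0.68, limma adjusted p = 0.287), with WT replicate 4 at −7.02 and the other 5 arrays between −4.73 and −3.96. Cd209g differed by 0.51 (0.23, 0.275), and Mgl2, the close paralog of Clec10a, by 0.05 (0.102, 0.849), with the standard error and the limma adjusted p in parentheses. The transcription factor Maf differed by −0.14 (adjusted p = 0.622), and the scavenger receptors Marco and Stab1 by −0.40 and 0.13 (adjusted p = 0.55 and 0.619). The count of 10 ranged from 7 to 15 over the alternatives, with 15 without WT replicate 4 and 8 with the slide row as a block, where 1 gene was called lower.

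**Figure D3:**
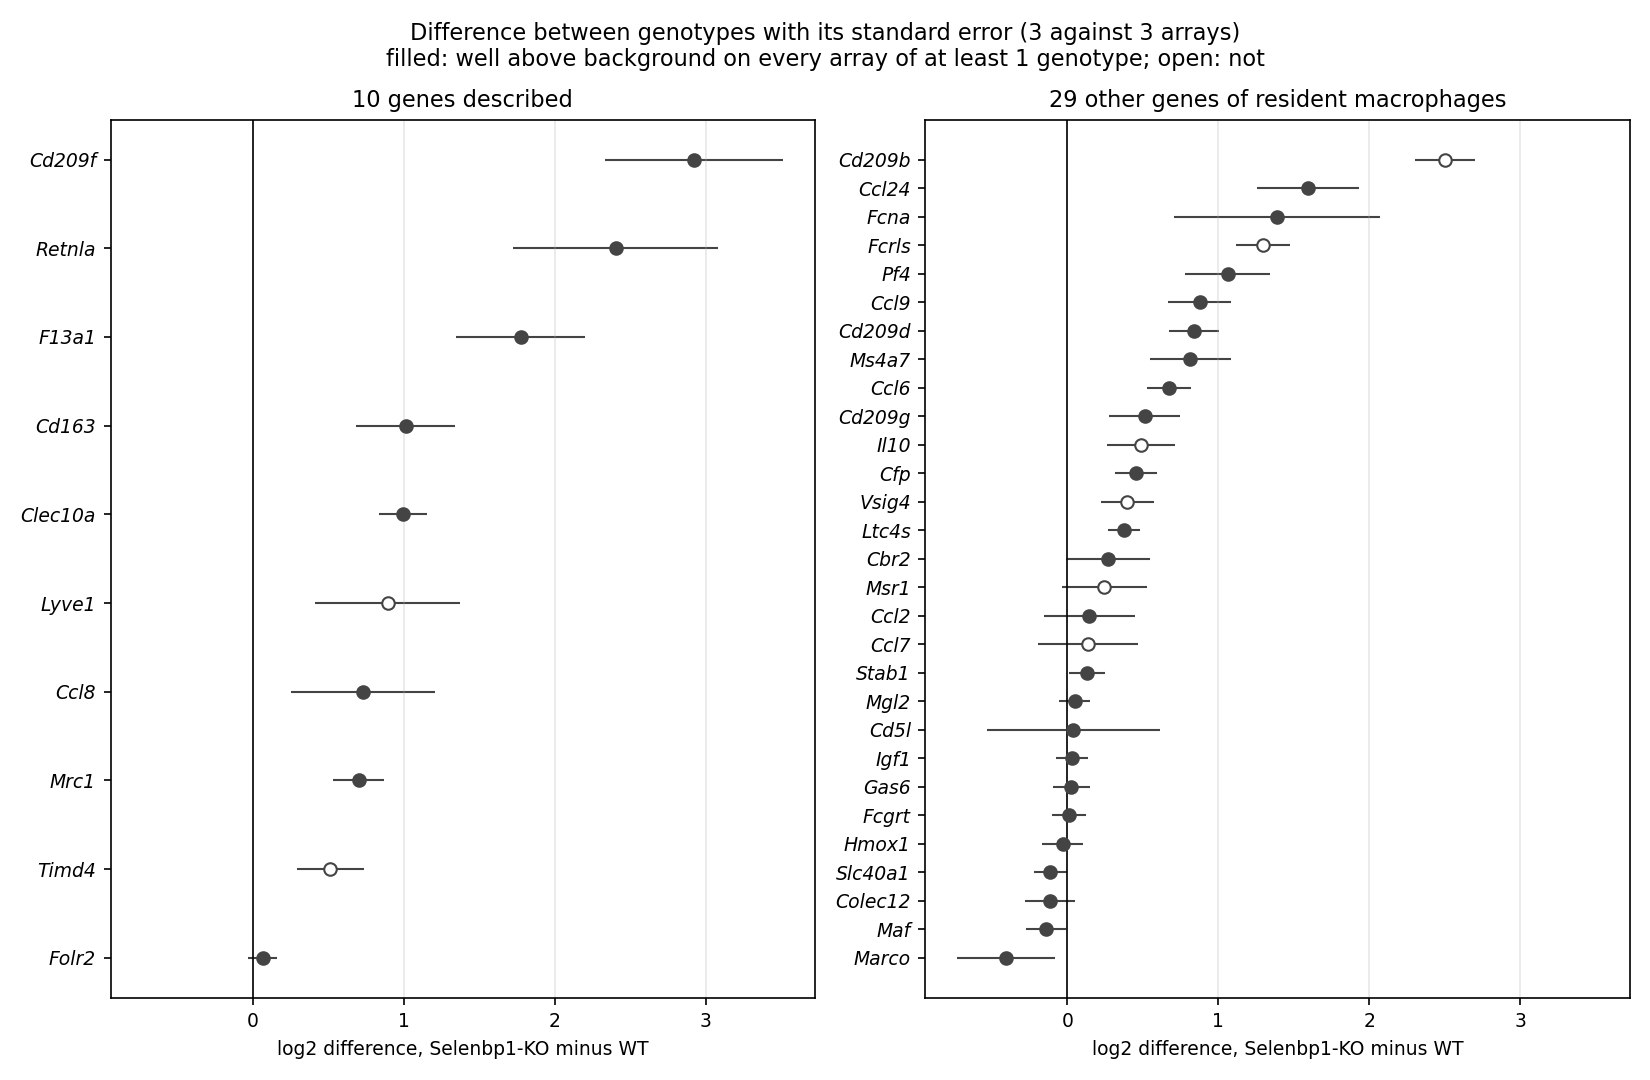
Log2 difference, Selenbp1-KO minus WT (horizontal axis), with its standard error as a bar, for the 10 genes (left) and 29 of the 30 other genes of resident macrophages (right), with filled points where the probe was well above background throughout at least 1 genotype. All 10 genes lie above 0, from 0.07 for Folr2 to 2.92 for Cd209f, and the genes at the right with filled points run from −0.40 for Marco to 1.59 for Ccl24, with the open points not sized.

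Core macrophage genes, expressed by most macrophages and not only by the perivascular subset, were read as a further list. Of 21 such genes 8 were called higher (38.1%, beside 6.87%) and 0 lower, with a median of 0.36 and 0 that passed after adjustment. The genes were Lyz2, lysozyme (0.74), Tyrobp (0.69) and Fcer1g (0.40), adaptors of activating receptors, the complement C1q chains C1qc (0.60), C1qa (0.58), and C1qb (0.51), Cd68, an endosomal glycoprotein (0.36), and Ctss, cathepsin S (0.31), each with a limma adjusted p of 0.275. Tyrobp read −0.39, −0.49, and −0.45 in WT and 0.30, 0.33, and 0.11 in Selenbp1-KO. Csf1r, the receptor for the main macrophage growth factor, differed by 0.17 (adjusted p = 0.473), Adgre1, a classic marker of mouse macrophages, by 0.36 (0.275), and Cx3cr1 by 0.35 (0.542). Fcgr1 and Spi1, the latter encoding PU.1, were not well above background on any array. With the slide row as a block the count was 4. The summed signal of the 21 genes was 53.0 to 58.3 times the 75th percentile in WT and 62.5 to 64.8 times in Selenbp1-KO.

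Of 8 MHC class II genes, which present antigen on macrophages and dendritic cells, 4 were called higher (50%, beside 6.87%) and 0 lower (beside 1.13%). H2-Aa differed by 0.49, H2-Ab1 by 0.45, H2-DMa by 0.40, and H2-Eb1 by 0.35, each with a limma adjusted p of 0.275. Cd74, the invariant chain, differed by 0.30 (adjusted p = 0.275), and its groups did not overlap. The count of 4 was 1 with the slide row as a block and 2 with a replicate block.

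Several of the 10 genes, Retnla, Mrc1, and Clec10a among them, are known to rise in macrophages exposed to IL-4 or IL-13, a state called alternative activation. Of 16 other genes tied to that state 2 were called higher (12.5%, beside 6.87%) and 0 lower, with a median of 0.29. These were Ear2, an eosinophil-associated ribonuclease also made by macrophages (1.43, adjusted p = 0.275), and Pdcd1lg2, which was not well above background on any array. Ear2 was well above background on 2 WT arrays, so its size is uncertain. Chil3, also known as Ym1, differed by 0.46 (standard error 0.25, limma adjusted p = 0.336). Arg1, arginase 1, differed by 0.49 (standard error 0.84, limma adjusted p = 0.806). Arg1 was well above background on 1 WT array and 2 Selenbp1-KO arrays, so its size is uncertain. Irf4, Ccl17, and Cish, well above background on all arrays, differed by 0.93, 0.66, and −0.37, with overlap (limma adjusted p = 0.64, 0.402, and 0.481). Il4ra, the receptor chain, and Stat6, the factor it activates, differed by 0.04 and −0.02 (adjusted p = 0.936 and 0.942). The cytokines Il4 and Il13 were not well above background on any array. The count of 2 was 0 after quantile normalization and without Selenbp1-KO replicate 2 or 3, 1 without WT replicate 3, 5 without WT replicate 4, and 7 with a replicate block.

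Of 11 cytokines that act on macrophages 0 were called in either direction in limma. Csf1 and Il34, the 2 ligands of Csf1r, differed by 0.15 and 0.19 (adjusted p = 0.497 and 0.574), Il33, which acts on type 2 immune cells, by 0.13 (0.539), and Tnf by 0.08 (0.832). The other 7 cytokines and receptors, Il4 and Il13 among them, were not well above background. The count called higher was at most 3 under any alternative, with 3 without WT replicate 4 and with a replicate block.

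Of 17 ligands and partners of the 10 genes 0 were called in either direction in limma, with a median of 0.19. Hp encodes haptoglobin, which carries hemoglobin to Cd163. It read 0.93, 0.79, and −0.48 in WT and 1.26, 2.01, and 1.13 in Selenbp1-KO, without overlap, a difference of 1.05 (standard error 0.44, limma adjusted p = 0.275). The hyaluronan synthases Has1, Has2, and Has3, whose product binds Lyve1, were not well above background on any array, and the hyaluronidase Hyal1 differed by −0.26 (adjusted p = 0.428). F13b, the carrier subunit of factor XIII, differed by −0.11 (adjusted p = 0.625), and Mfge8, another bridge to phosphatidylserine, by 0.09 (adjusted p = 0.777). The folate transporters Slc19a1 and Slc46a1 differed by −0.08 and 0.06. The count called higher was at most 5 under the alternatives, with a replicate block, and at most 2 with 1 array left out, and the count called lower was at most 1.

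Markers of some other cells were also higher in Selenbp1-KO. Of 12 genes of connective tissue fibroblasts, the cells that perivascular macrophages lie among, all 12 were higher in Selenbp1-KO and well above background, 10 did not overlap (beside 12.5% of genes above background), and 7 were called higher (58.3%, beside 6.87%), with a median of 0.66. Mfap5, Pi16, Dpt, and Lum differed by 1.40, 1.20, 1.08, and 0.85, each with a limma adjusted p of 0.275. Pdgfra and Cd34 of the same list differed by only 0.07 and 0.06 (limma adjusted p = 0.804 and 0.875), with overlap. The summed signal of the 12 genes was 21.9 to 27.5 in WT and 35.1 to 44.5 in Selenbp1-KO, in units of the 75th percentile. The count was 6 with the slide row as a block. Nothing is read from all 12 being higher, because the share of all genes with a higher mean was not counted. The part of the fibroblast genes in the differences of the 10 genes was not tested.

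Fat and blood were read in the same way. All 8 genes of fat tissue had a higher mean, 0 were called in limma, and in 0 did the genotypes not overlap, with a median of 0.77. Nothing is read from all 8 being higher, because the share of all genes with a higher mean was not counted. Without Selenbp1-KO replicate 3, 5 of the 8 were called higher, and without WT replicate 3, 1 was. Their summed signal was 27.0 to 73.9 in WT and 39.1 to 178 in Selenbp1-KO, highest in Selenbp1-KO replicate 2 and lowest in WT replicate 4, as for most of the 10 genes. Retn, the resistin gene of fat cells and a paralog of Retnla, read −0.51, 0.30, and −1.66 in WT and 1.05, 2.07, and −0.18 in Selenbp1-KO, a difference of 1.60 (standard error 0.71, limma adjusted p = 0.275) with overlap. Of 5 genes of red blood cells 3 were called higher (60%, beside 6.87%) and Slc4a1 differed by 0.11 without passing. The summed signal of the 5 genes was 257 to 344 in WT and 363 to 538 in Selenbp1-KO. Hbb-b1, Alas2, and Hba-a1 differed by 1.26, 0.86, and 0.56, each with a limma adjusted p of 0.275. The part of fat and blood in the differences was not tested.

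**Figure D4:**
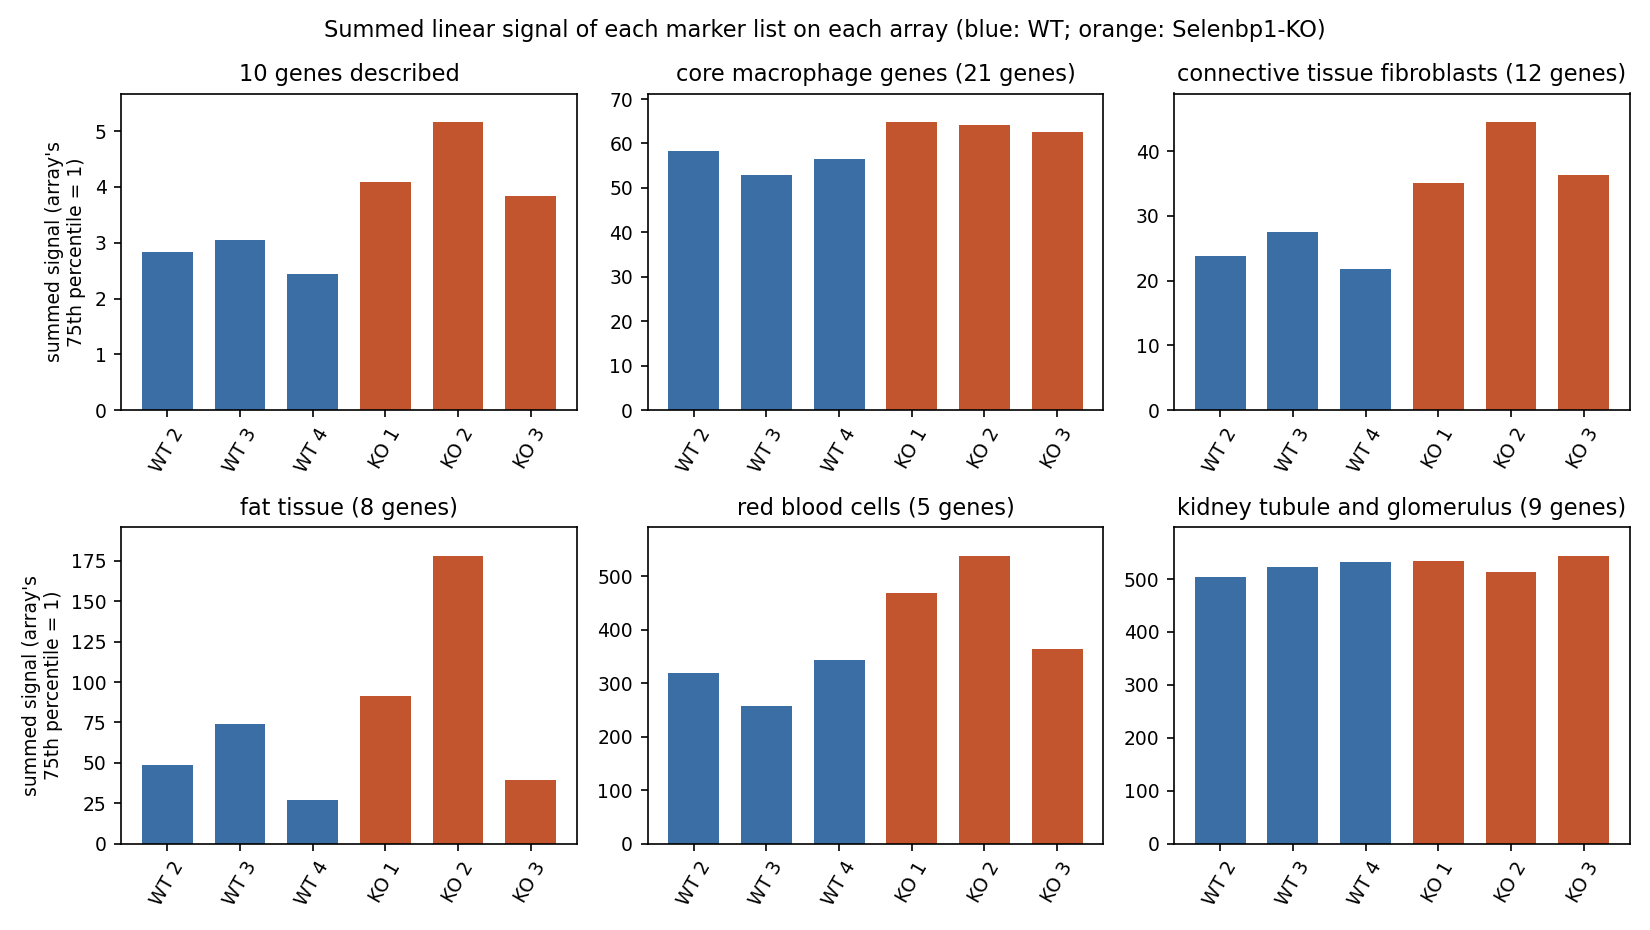
Summed linear signal of a gene list on each array (vertical axis, in units of the 75th percentile of the array, starting at 0) for WT (blue) and Selenbp1-KO (orange). The sums of the 10 genes were 2.44 to 3.05 in WT and 3.84 to 5.16 in Selenbp1-KO. Bright probes weigh most in these sums, those of Folr2, which was flat, and of Retnla. The sums of the 10 genes, of core macrophage genes, of connective tissue fibroblasts, and of red blood cells did not overlap between genotypes. Those of fat tissue overlapped, and those of kidney tubule and glomerulus were alike.

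Lymphatic vessels also express Lyve1, and of 6 genes of lymphatic endothelium 3 were higher and 3 lower, with 0 called in limma. Prox1, the factor that defines these cells, differed by −0.08 (adjusted p = 0.798), and Reln, Pdpn, and Mmrn1 by −0.27, 0.26, and −0.10. Of 9 monocyte genes 2 were called higher (22.2%, beside 6.87%). Ly6c2 differed by 0.26 and F10 by 0.41, each with a limma adjusted p of 0.275, and Ccr2 by −0.05 (adjusted p = 0.919). Whether the Ly6c2 probe also reads transcripts of related genes was not tested. The count was 0 without WT replicate 2, WT replicate 3, or Selenbp1-KO replicate 3, 1 without Selenbp1-KO replicate 1 or 2, and 3 without WT replicate 4. Of 10 neutrophil genes 0 were called. Among the 4 well above background, S100a9, S100a8, and Ly6g differed by 0.71, 0.48, and 0.32, and Csf3r by −0.14 (limma adjusted p = 0.528, 0.62, 0.28, and 0.751). Of these only Ly6g did not overlap, beside 12.5% of genes above background. Camp, Ngp, Ltf, and Mmp8 were not well above background. Of 9 dendritic cell genes 1 was called higher (11.1%, beside 6.87%), Itgae by 0.29, whereas Xcr1 and Clec9a were not well above background. That count was 0 without WT replicate 2, WT replicate 3, or Selenbp1-KO replicate 2 and 3 without WT replicate 4.

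The other lists held few or no calls. Of 10 genes of T and B lymphocytes 1 was called higher (10%, near the 6.87% of all genes), Cd3e by 0.64 (standard error 0.23, limma adjusted p = 0.275), and Cd3g, Cd8a, and Cd79a were not well above background. The count was 0 without WT replicate 3 or Selenbp1-KO replicate 2 or 3 and 2 without WT replicate 4. Of the lymphocyte genes well above background on all arrays, Cd2, Cd79b, Ptprc, and Cd4 were not called. Their differences were 0.50, −0.16, −0.16, and 0.004 (limma adjusted p = 0.315, 0.769, 0.56, and 0.991). Of 7 mast cell genes and 5 eosinophil genes 0 were called in limma. All 7 mast cell genes had a higher mean, with a median of 0.30, beside 0.38 over genes not well above background on any array. The share of all genes with a higher mean was not counted, so nothing is read from the 7. Cma1 was well above background on 2 Selenbp1-KO arrays and Mcpt4 on 1, both on no WT array, and Cpa3 was not on any. Epx, Prg2, and Siglecf of the eosinophils were not well above background on any array. Leaving out WT replicate 3 gave 3 calls among the mast cell genes, and leaving out Selenbp1-KO replicate 2 or 3 gave 1. Among the eosinophil genes, leaving out WT replicate 4 gave 4 calls and leaving out Selenbp1-KO replicate 3 gave 1. Of 6 genes of peritoneal macrophages, which share Timd4 with the 10 genes, 0 were called, and Gata6 differed by 0.06 (adjusted p = 0.852). Of 5 mesothelium genes 1 was called higher (20%, beside 6.87%), Lrrn4, which was not well above background, and leaving out WT replicate 2 gave 2 calls and leaving out Selenbp1-KO replicate 3 gave 4. Of 5 adrenal cortex genes and 9 kidney genes 0 were called, and 2 of the former were without WT replicate 4.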

How the data were processed

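RNA of 6 kidneys was measured on 6 single-dye arrays. The authors deposited Feature Extraction output for each array (version 10.7.1.1 per the file headers, 9.5.1.1 in the submitters' processing notes). Its intensity values had the background subtracted and spatial trends removed array by array, with a surrogate for spots at background, and each spot had a p-value against background computed before the authors deposited the files. A second table that the authors deposited held linear intensity values, and its 6 columns had the same quartiles (quantile normalized). The software that made it is not given in the sources used here.

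Each processed signal was divided by the 75th percentile of its array over 59305 non-control spots (477 to 751), and the log2 was taken. Flagged spots were left out and repeated spots averaged. The two-sided test was that of limma 3.58.1 (lmFit, eBayes; R 4.3.3) on the 56097 probes whose detection p was under 0.05 on at least 1 array. A gene is represented by its brightest probe, and p-values were adjusted by Benjamini–Hochberg over 37028 genes. A gene was called where the unadjusted p was under 0.05, which is the study's criterion. Between 51.8% and 55.5% of spots were well above background. The 6 arrays limit the precision.

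Accessions in the files were matched to RefSeq (GRCm38.p6), which named 32994 probes, and probe coordinates are those of the files (mm9). The 10 genes, the lists, and the tests were chosen with earlier results of these data known. Named genes are the 10 genes, Selenbp1, up to 4 genes with the largest difference in each list, those called in the resident, core, and ligand lists, the 5 genes nearest in profile, and markers not above background. Cytokine, MHC, and other genes beyond that rule were named after their values were seen. Muc16 and Ear11 had no probe named here, and Chil4 was not tested.

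The alternatives were quantile normalization, scaling by the median, normexp correction (offset 50), the table of the authors, keeping only probes well above background or all probes, keeping flagged spots, the trend and robust options of limma (statmod 1.5.0), the methods' t-test, the slide row as a block, a replicate block, each array left out, and the mean of all probes. The fit was tested on simulated data. WT and Selenbp1-KO share the replicate numbers 2 and 3, too few to pair the arrays. No sample was left out, a few genes of the lists enter the counts but are not reported here by name, and the RT-PCR and metabolite data were not analysed here.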

Additional observations from a re-analysis of the deposited data

How the results depend on the processing

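All 10 genes were higher in Selenbp1-KO under every alternative that measured them (8 of them where only probes well above background were kept). The median of their differences ranged from 0.47 with normexp correction to 1.44 with the slide row as a block, which compares with WT replicate 4 alone. The number without overlap was 6 to 8. Of 178 values of single genes under the alternatives, 0 changed sign and 16 moved by more than the replicate spread. Alternatives that change only the test or the filter leave the difference of a probe as it was. The 10 genes were also chosen with this difference in view, so nothing is read from the 0. The count of all genes called, 2964, rose to 5213 with trend and robust options, 9756 with median scaling, and 12286 with a replicate block, and ranged from 1294 (without WT replicate 2) to 11812 (without WT replicate 4) with 1 array left out. It was 1803 without Selenbp1-KO replicate 2 and 1689 without WT replicate 3. Without WT replicate 4, 8454 genes passed after adjustment. After quantile normalization the calls were 1941 higher and 1428 lower, in place of 2544 and 420. Among the other resident macrophage genes, 1 was called lower with the slide row as a block, and 0 to 1 with 1 array left out. Arrays of the same number correlated in their deviations from the genotype means (r = 0.175 for number 2 and 0.195 for number 3, over 18361 genes), but WT replicate 3 and Selenbp1-KO replicate 1 did so as much (0.204), so the numbers are not taken to pair the mice. With the replicate block, which rests on the arrays numbered 2 and 3 of each genotype, the median of the 10 genes was 0.85. The cause of these changes was not tested. Genes near background, Lyve1 and Timd4 among them, cannot be sized here.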
